A study of Mus musculus with 7 samples.

Results

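Red pulp macrophages of the spleen engulf worn-out red cells and return their iron to the circulation. Haemoglobin is taken up and digested, haem is opened by haem oxygenase, biliverdin is reduced to bilirubin, and iron leaves the cell through ferroportin or is stored in ferritin. The transcription factor SpiC, whose gene is induced by haem, is needed for these cells to develop. The genes described here are Spic, Vcam1, Hmox1, Slc40a1, Cd163, Slc11a1 and Blvrb, chosen as a group by name. All probe sets with exactly 1 of these symbols in the platform annotation were taken, which gave 11 probe sets of 7 genes, out of 22626 probe sets and 12393 genes on the array.

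The study asked how the interaction of the T cell costimulator ICOS with its ligand ICOSL acts in acute graft-versus-host disease. Recipients in every group were female C57BL/6 (B6) mice, 9 to 12 weeks old, irradiated with 10.0 Gy from a caesium source and grafted 4 to 6 h later with splenocytes freed of red cells. The syngeneic group (1 array) received B6 splenocytes, and no antibody is named for it. The isotype group (2 arrays) received splenocytes of C3H/HeN donors, which makes the graft allogeneic, and control rat IgG, whose first day is not stated. The day 0 group (2 arrays) and the day 3 group (2 arrays) received the same kind of C3H/HeN graft and anti-ICOSL antibody from day 0 or from day 3, with 500 µg at first and 200 µg every other day. Splenocytes of all groups were collected on day 4. A later dose of the day 3 group was not due by then, so start day and total dose cannot be told apart. Groups held 4 mice per experiment, and combined RNA of allogeneic mice was put on 2 arrays, so p-values measure the spread between arrays, which may be technical. The syngeneic array differs from the others in donor strain and in antibody injection as well as in the allogeneic response, and these cannot be told apart. It is a single array, so its values carry no error, and its spread was taken to be that of the other groups. The levels are array signal intensities, and precision is limited by the number of arrays. In RNA from a whole cell suspension, fewer cells of a type and less RNA per cell cannot be told apart.

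Trimmed means were 500.18 or 500.19 signal units on the 7 arrays, and medians ran from 145.3 to 174.3. RNA integrity was read from Gapdh as the signal of its 3' control over that of its 5' control, which was 0.957 on the syngeneic array and 0.767 to 0.865 on the 6 allogeneic arrays. The syngeneic array is set apart in this ratio too, and the part of RNA integrity in the results was not tested. The labelled splenocytes were checked against lymphocyte markers. The summed signal of 7 T cell genes was 24129 on the syngeneic array and 32220 to 41023 on the allogeneic arrays, and that of 6 B cell genes was 23113 and 10303 to 15790. A sum of 4 liver genes, read as a check of tissue, was 109 to 333.

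RefSeq promoters (GRCm38.p6) were matched by symbol for 4 of the 7 genes, Slc11a1, Cd163, Blvrb and Spic, with 5 start sites in all. In the 250 bases before each start, both strands were searched for GAGGAA, a core bound by PU.1 and related ETS factors such as SpiC, and for TGACNNNGC, the core of the antioxidant response element bound by NRF2 and by BACH1 with small MAF proteins. The sequences of these motifs were searched separately. GAGGAA was found once, in the window of Slc11a1, and TGACNNNGC in 0 of 5 windows. Of all 32851 windows of the table, 23.3% hold GAGGAA and 10.2% hold TGACNNNGC. The Slc11a1 window is shown because it is the one that holds a match. It lies at chr1:74374953-74375202 on the plus strand, and the capitals mark GAGGAA, which begins 152 bases before the start. A match is a description of these letters, not a bound site.
Slc11a1: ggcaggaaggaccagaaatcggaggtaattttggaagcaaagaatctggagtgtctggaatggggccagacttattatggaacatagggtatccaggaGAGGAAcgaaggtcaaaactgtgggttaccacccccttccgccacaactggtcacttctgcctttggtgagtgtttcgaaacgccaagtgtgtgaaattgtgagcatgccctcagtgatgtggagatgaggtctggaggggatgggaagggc

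Beside the syngeneic array, every one of these genes was low on the isotype arrays. All 11 probe sets fell in the comparison of isotype with syngeneic arrays, where 4.12% of 15372 tested probe sets were called lower (limma, adjusted p under 0.05). The median log2 change of the 7 genes was −3.39, against −0.01 for all tested probe sets. Testing required a signal of 99.67, the 40th percentile over all arrays, as the mean of 1 group or more. All 11 did, but that of Cd163 did so only through the syngeneic array, so it had to be lower elsewhere, and the count gives no support by itself. Log2 changes were taken on log2(signal + 50), which understates changes of low signals. For genes with several probe sets, the one with the highest mean signal stands for the gene.

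Spic, the transcription factor of the lineage, had a signal of 2262 in the syngeneic sample, 201 and 144 with isotype, 314 and 235 with antibody from day 0, and 242 and 104 with antibody from day 3. All 6 allogeneic arrays lay far under the syngeneic one, and the day 3 arrays spanned the range of the isotype arrays. The log2 change of isotype against syngeneic was −3.39 ± 0.41 (SE, adjusted p = 0.00815). The second probe set of Spic went from 709 to 123 and 88.3 (−2.29 ± 0.23, adjusted p = 0.00488), a smaller fall, with 76.8 to 99.6 on the other 4 allogeneic arrays. Those signals are close to the filter on low signal, and its fold is therefore less certain.

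Vcam1 encodes an adhesion molecule by which red pulp macrophages hold cells that carry the integrin VLA-4, and endothelium and stroma carry it as well. Its signal was 8748 in the syngeneic sample, 759 and 673 with isotype, 1422 and 1504 with antibody from day 0, and 1108 and 1184 with antibody from day 3. By this probe set the 4 groups did not overlap, in the order syngeneic, day 0, day 3 and isotype. The log2 change of isotype against syngeneic was −3.52 ± 0.20 (adjusted p = 0.00135). The other 2 probe sets fell as well, with log2 changes of −2.73 ± 0.23 (adjusted p = 0.00295) and −3.96 ± 0.47 (adjusted p = 0.00799). The 3 probe sets thus put the syngeneic signal at 12.2, 7.06 and 19.6 times the isotype mean, and they disagreed on size but not on direction.

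Cd163 encodes the scavenger receptor that takes up haemoglobin bound to haptoglobin. Its signal was 417 in the syngeneic sample, 66.4 and 66.5 with isotype, 62.9 and 50.6 with antibody from day 0, and 79.9 and 50.7 with antibody from day 3. All 6 allogeneic values were under the 40th percentile of signals, and their order says little. The log2 change of isotype against syngeneic was −2.01 ± 0.23 (adjusted p = 0.00722).

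Haem that enters the cell is opened by haem oxygenase 1, the product of Hmox1. Hmox1 stood at 7111 in the syngeneic sample, 621 and 635 with isotype, 812 and 676 with antibody from day 0, and 1024 and 785 with antibody from day 3. The log2 change of isotype against syngeneic was −3.40 ± 0.24 (adjusted p = 0.00231). Blvrb, a biliverdin and flavin reductase that is also abundant in erythroid cells, stood at 3233 in the syngeneic sample, 820.4 and 661 with isotype, 649 and 767 with antibody from day 0, and 1018 and 820.1 with antibody from day 3. Its log2 change was −2.06 ± 0.25 (adjusted p = 0.00799). Blvrb kept the largest share of the syngeneic signal of the 7 genes on the isotype arrays, 25.4% and 20.5%, whereas Hmox1 kept 8.74% and 8.93%.

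Iron export and transport were covered by both Slc genes. Slc40a1, which encodes ferroportin, the iron exporter, stood at 10891 in the syngeneic sample, 876 and 776 with isotype, 1652 and 1489.9 with antibody from day 0, and 1332 and 1334 with antibody from day 3. By this probe set the groups came in the same order as for Vcam1 with no overlap, whereas the day 0 and day 3 arrays overlapped by the second one. The log2 change of isotype against syngeneic was −3.65 ± 0.20 (adjusted p = 0.00135), and that of the second probe set was −3.78 ± 0.24 (adjusted p = 0.00208). Slc11a1 encodes NRAMP1, which moves iron and other metals out of phagosomes, and neutrophils and monocytes carry it too. Its signal was 2659 in the syngeneic sample, 447 and 386 with isotype, 564 and 715 with antibody from day 0, and 633 and 676 with antibody from day 3. The log2 change was −2.54 ± 0.23 (adjusted p = 0.00332). All 6 allogeneic arrays were far under the syngeneic signal.

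**Figure D1:**
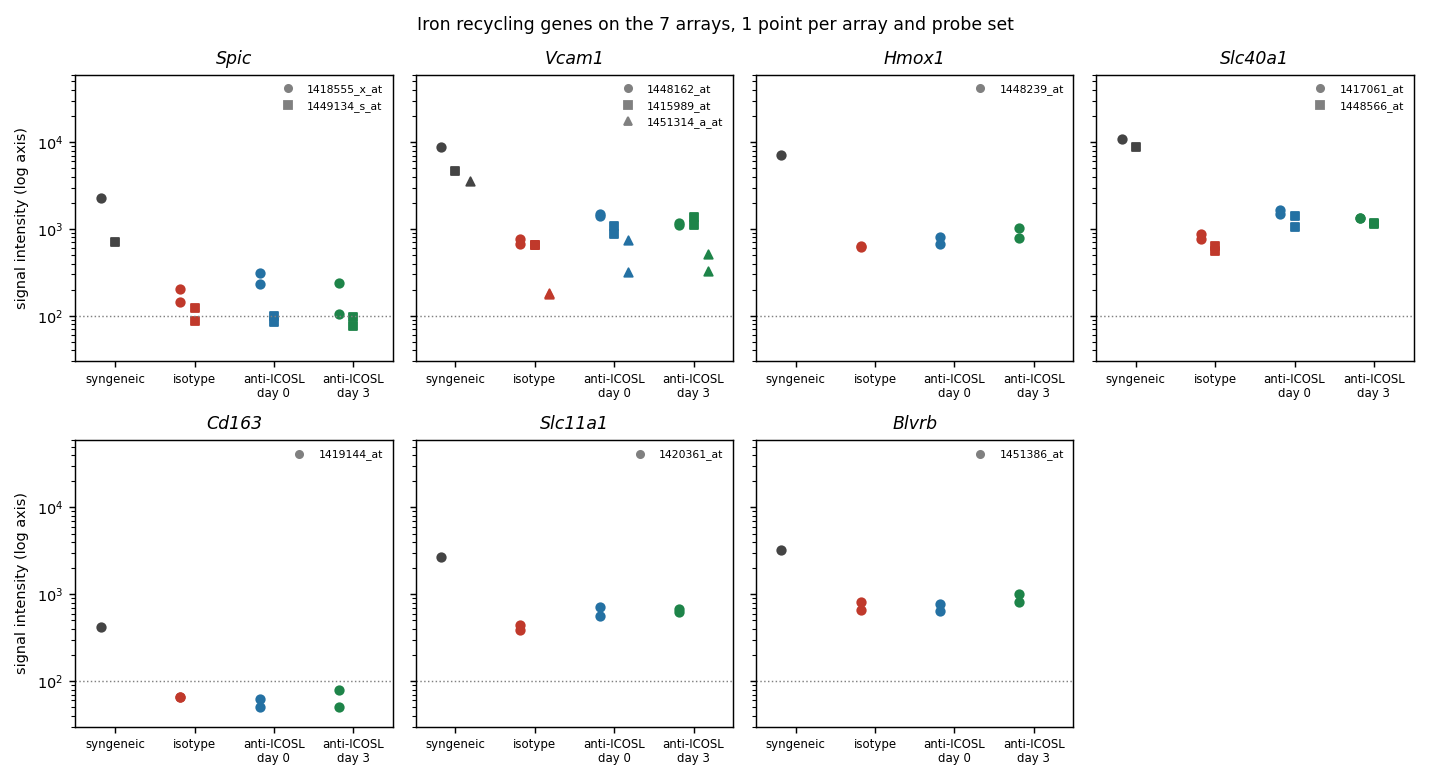
Signal intensity (log axis) of the 11 probe sets in 7 panels, 1 point per array, with marker shapes for probe sets and colours for groups; the dotted line is the filter at 99.67. The syngeneic point of each probe set lies above its 6 allogeneic points, and Cd163 lies under the line on all 6 of them.

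As a share of the syngeneic signal, the isotype means ran from 7.58% for Slc40a1, 7.62% for Spic, 8.18% for Vcam1 and 8.83% for Hmox1 to 15.7% for Slc11a1 and 22.9% for Blvrb, by the probe set that stands for each gene. The other probe sets moved this order: the second one of Spic kept 14.9%, those of Vcam1 14.2% and 5.10%, and that of Slc40a1 6.78%. The share of Cd163 (15.9%) has no place in it, because its allogeneic signals were all under the filter. The 2 isotype arrays differed by a factor of at most 1.40 in any of the 11 probe sets. They may share combined RNA, and the syngeneic array is single, so the spread between mice is not known. In the ranking of all 15372 tested probe sets by log2 change, the probe sets of Slc40a1 were 13th and 16th from the lowest, those of Vcam1 were 8th, 21st and 69th, and that of Hmox1 was 26th. The Blvrb probe set was 205th, and Cd163 is not ranked because of its low signal.

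**Figure D2:**
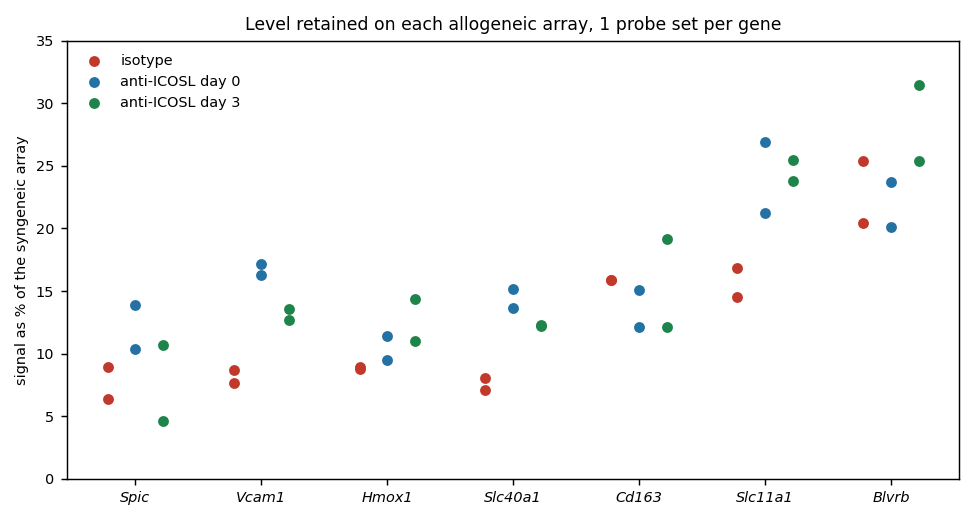
Signal on each of the 6 allogeneic arrays as a percentage of the syngeneic signal, for the probe set that stands for each gene, with 1 point per array. Spic, Vcam1, Hmox1 and Slc40a1 kept under 10% on both isotype arrays, and Vcam1 and Slc40a1 were higher on the day 0 and day 3 arrays; the Cd163 points rest on signals under the filter.

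Both anti-ICOSL groups also stayed far under the syngeneic array. In the comparison of day 0 with syngeneic arrays 4.23% of tested probe sets were called lower, and in that of day 3 with syngeneic arrays 4.32%. All 11 probe sets fell in each, but that of Cd163 again passed the filter only through the syngeneic array. These comparisons use the same syngeneic array as the one above. The day 0 means were 12.1% of the syngeneic signal for Spic, 16.7% for Vcam1, 10.5% for Hmox1, 14.4% for Slc40a1, 24.0% for Slc11a1 and 21.9% for Blvrb. The day 3 means were 7.64% for Spic, 13.1% for Vcam1, 12.7% for Hmox1, 12.2% for Slc40a1, 24.6% for Slc11a1 and 28.4% for Blvrb. Slc40a1 had a log2 change of −2.76 ± 0.20 on day 0 arrays (adjusted p = 0.00245) and of −2.98 ± 0.20 on day 3 arrays (adjusted p = 0.00315), against −3.65 on isotype arrays.

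The call of Spic in day 0 against syngeneic arrays (adjusted p = 0.0145) ended without day 0 array 1 (0.0665) or day 0 array 2 (0.0797), and that of Blvrb (0.00795) ended without day 0 array 1 (0.0548). The call of Blvrb in day 3 against syngeneic arrays (0.0142) ended without day 3 array 2 (0.0671). Fitted to the day 3 and syngeneic arrays alone, 0 of 7 genes passed (adjusted p = 0.0501 to 0.0643), as did 0 of all probe sets. The isotype calls of the 7 genes passed under all 16 alternative settings (log2 changes from −3.73 to −1.64). At the main filter Cd163 passed only through the syngeneic array, so its calls give no support by themselves.

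Start of anti-ICOSL on day 0, compared with isotype, asks whether blockade of ICOSL from the time of the graft changes these levels. Vcam1, Slc40a1 and Slc11a1 had higher means on day 0 arrays, at 2.04, 1.90 and 1.53 times the isotype mean, and Cd163 and Blvrb did not, at 0.854 and 0.956 times. None of the 7 genes passed the test, and 0% of all tested probe sets were called (smallest adjusted p = 0.0853). At an unadjusted p under 0.05 there were 6 of 11 probe sets, of 3 genes, against 7.18% of all tested probe sets (1103). The median log2 difference of the 7 genes was 0.55, against 0.02 for all tested probe sets. On 8 of 11 probe sets both day 0 arrays were above both isotype arrays, against 19.4% of all tested probe sets. Probe sets of a gene and genes of a cell type do not move independently, so these counts are a description.

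For Vcam1 the log2 difference was 0.98 (95% confidence interval 0.60 to 1.37, adjusted p = 0.242), and its other probe sets gave 0.54 and 1.24. For Slc40a1 it was 0.89 (0.50 to 1.28, adjusted p = 0.323), and 0.96 for the second probe set. With limma's trend and robust options, Vcam1 (adjusted p = 0.0265) and Slc40a1 (0.0337) passed among 21 probe sets called. Slc11a1 stood at 0.56 (0.11 to 1.00, adjusted p = 0.638). Hmox1 stood at 0.22 (−0.25 to 0.69, adjusted p = 0.858), with both day 0 arrays above both isotype arrays. The probe sets of Spic went opposite ways, 0.55 (−0.25 to 1.35) and −0.12 (−0.58 to 0.34). Cd163 (−0.13, −0.58 to 0.33) and Blvrb (−0.06, −0.54 to 0.43) had intervals that leave room for a change in either direction.

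Antibody from day 3 had been given for at most 1 day before the spleens were taken. Vcam1 and Slc40a1 were 1.60 and 1.61 times the isotype mean on day 3 arrays, Slc11a1 1.57 times and Hmox1 1.44 times. None of the 7 genes passed, and 0% of all tested probe sets were called (smallest adjusted p = 0.0971). At an unadjusted p under 0.05 there were 7 of 11 probe sets, of 4 genes, against 10.2% of all (1573). The median log2 difference of the 7 genes was 0.48, against 0.03 for all. Both day 3 arrays were above both isotype arrays on 7 of 11 probe sets, against 24.3% of all tested. These 7 are the probe sets of Vcam1, Slc40a1, Slc11a1 and Hmox1. With trend and robust options 5 probe sets were called, 0 of them of these genes. The isotype arrays are shared with the day 0 comparison, so the values of both comparisons are not independent.

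The log2 difference of day 3 from isotype was 0.65 for Vcam1 (0.26 to 1.03, adjusted p = 0.391), with 0.87 and 1.01 for its other probe sets. It was 0.66 for Slc40a1 (0.27 to 1.06, adjusted p = 0.386), with 0.89 for its second probe set. Slc11a1 stood at 0.60 (0.15 to 1.04, adjusted p = 0.408) and Hmox1 at 0.48 (0.01 to 0.95, adjusted p = 0.476). Spic (−0.06, −0.86 to 0.74), Cd163 (−0.03, −0.48 to 0.43) and Blvrb (0.29, −0.19 to 0.78) had intervals on both sides of 0. The day 3 arrays of Spic lay apart by a factor of 2.32, the widest gap of any group for this probe set.

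**Figure D3:**
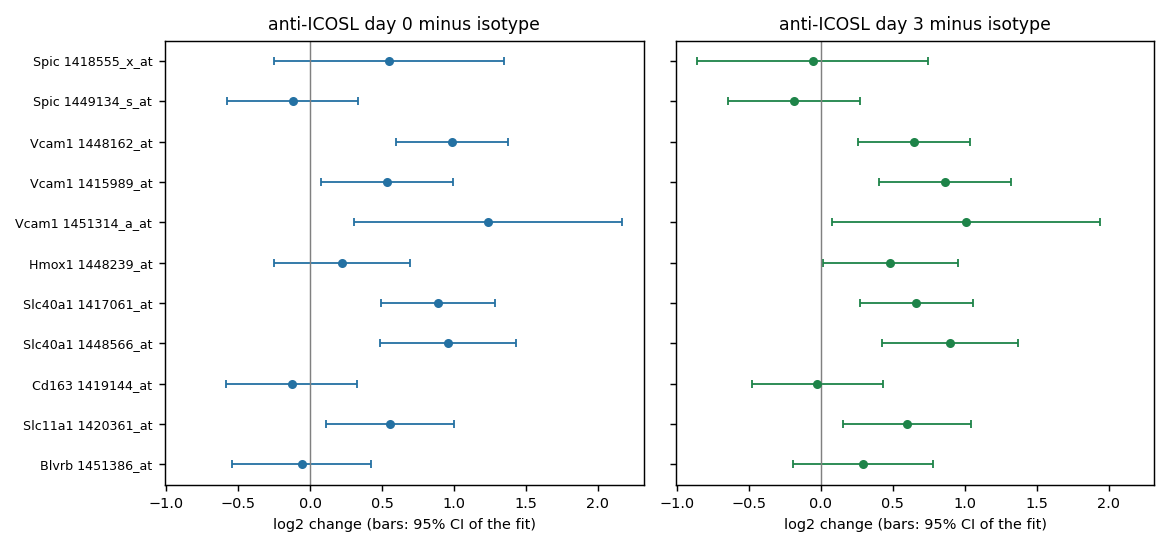
Log2 change of day 0 (left) and day 3 (right) against isotype for the 11 probe sets, with 95% confidence intervals of the fit; none passed the test after adjustment. The probe sets of Vcam1, Slc40a1 and Slc11a1 lie above 0 in both panels, while the intervals of Cd163 and Blvrb span it.

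Between the schedules, 0% of all tested probe sets were called (smallest adjusted p = 0.0914), 6.79% had an unadjusted p under 0.05 (1043), and 0 of the 11 probe sets were among them. With trend and robust options 12 probe sets were called, 0 of them of these genes. The log2 difference of day 0 from day 3 was 0.34 for Vcam1 by its main probe set, whose arrays did not overlap, and −0.33 by another, whose arrays did not overlap in the opposite order. An order of the schedules can therefore not be read from Vcam1. For Slc40a1 the difference was 0.23 (adjusted p = 0.846) and for Blvrb −0.35 (adjusted p = 0.793).

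Other genes of the same pathway, listed with earlier results of these data known, were read from the same fit. On isotype against syngeneic arrays 4.12% of all tested probe sets were called lower and 2.49% higher, which applies to each list below. Of 10 tested genes of haem and haemoglobin handling, 3 fell on isotype against syngeneic arrays and 0 rose (median log2 change −0.41, against −0.01 for all tested probe sets). Lrp1, the receptor for haem bound to haemopexin, fell from 1216 to 149 ± 12 (SD, n = 2; −2.67, adjusted p = 0.00353). Slc48a1, which carries haem out of the phagolysosome, fell from 1286 to 426.5 ± 24.4 (−1.49, adjusted p = 0.0120). Abcg2, an exporter that accepts porphyrins, fell (−1.17, adjusted p = 0.0354), and its call ended whichever allogeneic array was dropped (up to adjusted p = 0.108). The Abcg2 call also ended with no filter, with quantile normalization, with median centring and with the compared groups alone. Hmox2, the constitutive haem oxygenase, and Blvra, the main biliverdin reductase, were 883 ± 72 against 1134 and 1305 ± 86 against 1838, and did not pass.

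Among 17 tested genes of iron transport, storage and control, 3 fell and 0 rose (median −0.56). Hfe, which takes part in iron sensing and is high in macrophages, fell from 1160.1 to 203 ± 56 (−2.28, adjusted p = 0.00674). Lcn2, a siderophore-binding protein of neutrophil granules, fell from 3009 to 603 ± 81 (−2.23, adjusted p = 0.00906). Slc39a8, a zinc and iron importer, fell (−1.16, adjusted p = 0.0433), a call that ended in the same way (up to 0.101). Fth1, the ferritin heavy chain that most cells express, was 17051 ± 551 against 25867 (−0.60, adjusted p = 0.128) and thus kept far more of its signal than Slc40a1 did. Its day 0 and day 3 means were 16975 ± 24.4 and 17308 ± 872.

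Of 16 regulators, 3 fell and 2 rose (median −0.40), where 4.12% of all tested probe sets were called lower and 2.49% higher. Csf1r, the receptor on which macrophages depend for survival, fell from 10891 to 1986 ± 50 (−2.43, adjusted p = 0.00272), while its ligand gene Csf1 rose from 122 to 380.2 ± 31.6 (1.32, adjusted p = 0.0184). The Csf1 call ended without either isotype array (up to 0.0636) and with the mean over its probe sets, where the log2 change was 0.59 (0.238). Nfe2l2, which encodes NRF2, an activator of Hmox1, fell from 1489.8 to 583 ± 78 (−1.29, adjusted p = 0.0461). Spib, a B cell and plasmacytoid dendritic cell factor related to SpiC, fell (−1.05, adjusted p = 0.0430) and Irf4, a lymphocyte factor, rose (1.07, adjusted p = 0.0453). The Nfe2l2 call ended without either isotype or either day 3 array (up to 0.139), and those of Spib and Irf4 whichever allogeneic array was dropped (up to 0.118 and 0.111). All of these Nfe2l2, Spib and Irf4 calls also ended with 16 in place of 50 added to the signal, with no filter, with median centring and with the compared groups alone. The Nfe2l2 call ended with quantile normalization too. Bach1, the haem-sensing repressor of Hmox1, was 320.4 ± 0.187 against 512 (adjusted p = 0.328).

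Of 9 tested NRF2 targets 1 fell and 0 rose (median −0.28). It was Gclm, a subunit of the enzyme that starts glutathione synthesis (−1.47, adjusted p = 0.0253), and its call ended without isotype array 1 or either day 0 array (up to 0.0719). The Gclm call also ended with no filter and with the compared groups alone. Of 16 genes of red cell recognition and uptake 3 fell and 0 rose (median −0.46). Axl, a receptor for dying cells, fell from 4079 to 437 ± 25 (−3.09, adjusted p = 0.00267), Mertk, a related receptor, from 1241 to 234 ± 38 (−2.19, adjusted p = 0.00434), and Sirpa, which reads the CD47 signal on red cells, from 2445 to 528 ± 104 (−2.12, adjusted p = 0.00799).

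Against the syngeneic array, 4.23% of all tested probe sets were called lower and 2.8% higher in the day 0 group. In the day 3 group the shares were 4.32% and 2.89%. The calls of list genes in both anti-ICOSL groups were these. In haem and haemoglobin handling 2 genes fell in each group (Slc48a1 and Lrp1). In iron transport, storage and control 3 fell in the day 0 group (Hfe, Slc39a8 and Lcn2) and 2 in the day 3 group (Hfe and Lcn2). Among regulators Spib and Csf1r fell and Irf4 and Csf1 rose in both. Bach2, a repressor related to BACH1 that B cells express, fell in the day 3 group (−2.25, adjusted p = 0.0353). Gclm fell in both groups, as did Sirpa, Axl and Mertk, while the integrin chain Itgb1 rose in both. Itga4, the VLA-4 chain that binds VCAM1, rose in the day 3 group (1.15, adjusted p = 0.0383). The Itgb1 and Irf4 calls ended under most settings that leave out 1 array (up to 0.149 and 0.156), and so did those of Itga4 (up to 0.142) and Bach2 (up to 0.0784). Those of Gclm, Slc48a1, Spib, Slc39a8, Lcn2, Sirpa, Csf1 and Lrp1 ended without 1 array in at least 1 of these comparisons (up to 0.108, 0.0734, 0.0901, 0.109, 0.0767, 0.0786, 0.0659 and 0.0544). With the mean over a gene's probe sets, the log2 difference of Itgb1 was 0.46 on day 0 and 0.38 on day 3 arrays, against 1.01 and 1.04 by its main probe set, and no longer passed (0.153 and 0.204). Csf1 likewise came to 1.04 and 0.68, against 1.70 and 1.54, and did not pass (0.0696 and 0.171). In the comparisons with isotype arrays 0 of these genes passed.

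Markers of the cells that could carry the 7 genes moved as follows. Of 11 other genes of red pulp macrophages 10 fell on isotype against syngeneic arrays (median log2 change −2.41), with Il18bp the exception (adjusted p = 0.142). Of all tested probe sets 4.12% were called lower there. Their summed signal was 36492 in the syngeneic sample, 5315 and 5712 with isotype, 7906 and 8487 with antibody from day 0, and 7945 and 7438 with antibody from day 3. Of these 11, 9 fell in each anti-ICOSL group against syngeneic, where 4.23% (day 0) and 4.32% (day 3) of all tested probe sets were called lower. Csf1r, Mertk, Axl and Sirpa stand in this list and in the lists above. All 11 had higher means on day 0 than on isotype arrays (median 0.45) and on day 3 than on isotype arrays (0.41), and 0 passed. Fcna, a ficolin of splenic macrophages, went from 7939.6 on the syngeneic array to 616 and 811 on the isotype arrays, and the mannose receptor gene Mrc1 from 3423 to 366 and 322. The isotype call of C6 ended without either isotype array (up to 0.0899) and that of Fcgr1 without isotype array 1 (0.0515). The C6 calls also ended without either isotype or either day 0 array in day 0 (up to 0.116), and whichever allogeneic array was dropped in day 3 (up to 0.104). Those of Adgre1 ended without day 0 array 2 (0.0563) and without day 3 array 2 (0.0621).

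Neutrophil markers, which bear on Slc11a1, summed over 10 genes to 37557 on the syngeneic array, 10391 and 9896 on isotype, 12760 and 13700 on day 0 and 11054 and 10545 on day 3 arrays. On isotype arrays 7 of 9 tested neutrophil genes fell, and Cxcr2 was under the filter on every array. The shares of all tested probe sets called lower were 4.12% on isotype, 4.23% on day 0 and 4.32% on day 3 arrays. Monocyte markers (7 genes) summed to 8549 on the syngeneic array and 29.5% to 54.3% of that on the allogeneic arrays. The sum was carried mostly by Lyz2 and Fn1 and, on the syngeneic array, by Chil3 too. Of these 7, 3 fell on isotype, 1 on day 0 and 3 on day 3 arrays, and 2 had higher means on isotype than on syngeneic arrays without passing (Ccr2, 515 against 376, and Vcan, 48.1 against 38.9). Erythroid markers, which bear on Blvrb, summed over 11 genes to 32.2% and 31.8% of the syngeneic value on isotype arrays, 28.7% and 28.3% on day 0 arrays and 40.5% and 42.3% on day 3 arrays, with Epb42 under the filter on every array. Much of the sum came from Car2, with 13112 of 25312 on the syngeneic array. Of the 10 tested erythroid genes 6 fell on isotype, 9 on day 0 and 6 on day 3 arrays. Car1 went the other way without passing, with 1627 on the syngeneic array and means of 1737 on isotype, 1949 on day 0 and 2501 on day 3 arrays. The Blvrb signals of isotype and day 0 arrays overlapped. Endothelial and stromal markers, which bear on Vcam1, summed over 14 genes to 1628 on the syngeneic array and to between 78.9% and 133% of that on the allogeneic arrays. None of the 6 tested fell or rose on isotype arrays, and 7 of the 14, among them Cdh5, Tek and Pdgfrb, were under the filter on every array. Of the same 6, 1 fell on day 0 and 0 on day 3 arrays. The lowest log2 change among the 6 on isotype arrays was −0.83 and the highest 0.61, with a median of 0.03, and their part in the values of Vcam1 was not tested. Of 3 marginal zone and metallophilic macrophage markers, Marco carried nearly all of the signal on the syngeneic array. It fell in each group, from 1114 to 154 and 157 on isotype, 406.5 and 428 on day 0 and 428 and 434 on day 3 arrays. The sum of the 3 was 17.9% to 60.3% of the syngeneic one, and Siglec1 made up a larger part of it on the allogeneic arrays. Siglec1, the metallophilic marker, was 20.4 on the syngeneic array and 35.2 to 258 on the allogeneic arrays, and did not pass (log2 0.64, 1.72 and 1.42 for isotype, day 0 and day 3), and Cd209b was under the filter throughout. Dendritic cell markers (7 genes) summed to 84.5% to 125%. The calls of the markers in this paragraph were not followed through the alternative settings. The part of neutrophils, monocytes and erythroid cells in the values of Slc11a1 and Blvrb was not tested.

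**Figure D4:**
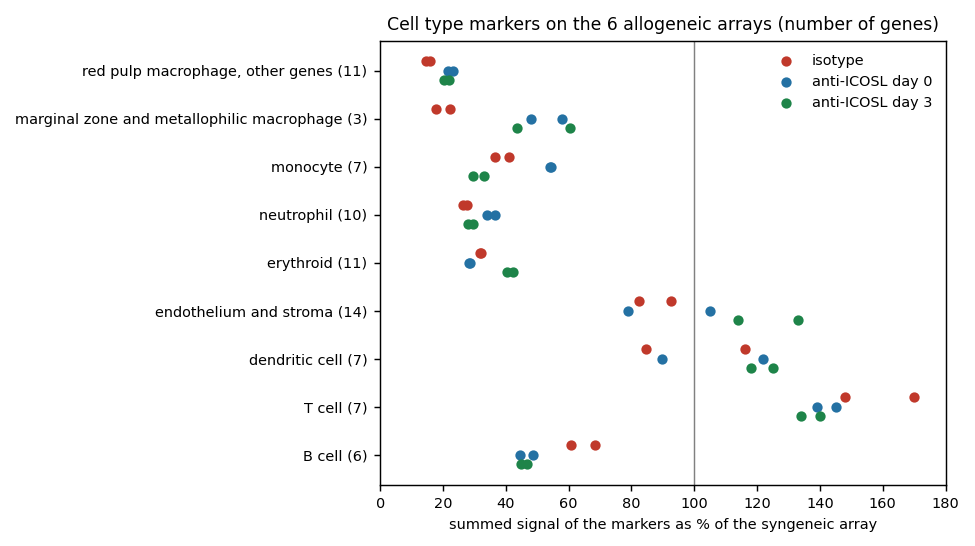
Summed signal of marker genes of 9 cell types on each of the 6 allogeneic arrays, as a percentage of the syngeneic array, with 1 point per array and the number of genes in brackets. Markers of red pulp macrophages lie between 14.6% and 23.3%, those of T cells between 134% and 170%.

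The genes most like this group were ranked by Pearson correlation with the mean standardised profile of the 7 genes, among 1718 genes whose group means spanned at least 1 log2 unit. Cd163 has the same weight in this profile as each other gene, though all its allogeneic signals were under the filter. The ranking over the allogeneic arrays alone is therefore less certain. Over all 7 arrays the 10 nearest were Ctsf, Csf1r, Mertk, Fcer1g, Clec4n, Tyrobp, Igsf6, Mrc1, Cd300c2 and Cd44, with r from 0.996 to 0.991. As 273 genes reached r of 0.9, and the syngeneic array alone sets most of the profile, the ranking separates genes poorly. Ctsf stood at 9.36 to 20.5 on the allogeneic arrays and passed the filter only through the syngeneic array (184). Clec4n, a C-type lectin receptor, stood at 5639.9 on the syngeneic array and at 784.5 to 1260.0 on the allogeneic arrays. Over the 6 allogeneic arrays alone the 10 nearest were Nfib, Ect2, Galnt10, Cd44, Adgre1, Poli, Gsx2, Glo1, St6galnac6 and Gatm, with r from 0.975 to 0.922, and 16 genes reached 0.9. This second ranking leaves out the syngeneic array, and not all of its genes shared the fall against that array. Ect2 was 236 on the syngeneic array and 355 to 641 on the allogeneic arrays, and Glo1 was 1731 and 3983 to 4624. Gsx2 was 12.6 on the syngeneic array. Signals of Gsx2 (10.4 to 157), St6galnac6 (23.6 to 219) and Nfib (32.5 to 168) lay on both sides of the filter on the allogeneic arrays, so their likeness is uncertain. Adgre1, which encodes the macrophage protein F4/80, stood at 476 and 474 on isotype arrays, 698 and 635 on day 0 arrays and 804 and 671 on day 3 arrays. Arrays of a group may share their combined RNA, and these correlations are descriptions.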

How the data were processed

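Spleen cell RNA (10 µg a sample) was read on 7 Affymetrix arrays. Per the submitters' processing notes the deposited intensities, linear in scale, come from MAS5, whose version is not given in the sources used here. The 2% trimmed means were nearly equal, so the signal intensities the authors deposited were used without further scaling. After 64 control probe sets were left out, 22626 remained, of which 20380 carried 1 gene symbol, 691 several and 1555 none; only those with 1 were named. All 11 probe sets of the group matched RefSeq gene IDs and symbols.

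Probe sets with a group mean of at least 99.67 (40th percentile) were tested on log2(signal + 50) with limma 3.58.1 in R 4.3.3, in 1 fit over all 7 arrays (3 residual and 3.36 prior degrees of freedom). Two-sided p-values were adjusted over 15372 probe sets (Benjamini-Hochberg), with a threshold of 0.05. The procedure was tested on simulated data. As alternatives the pseudocount was 16 or 100, the filter was raised to the 60th percentile or dropped, and arrays were quantile-normalized or median-centred; others were a replicate block, the compared groups alone, trend and robust options, the mean over a gene's probe sets, and each array left out. The 7 genes, the lists and the tests were chosen with earlier results of these data known. Named were the 7 genes, up to 6 list members per comparison that passed, the 10 genes most like the group, and, chosen after their values were seen, Hmox2, Blvra, Fth1, Bach1, Il18bp, Clec4n, Fcna, Mrc1, Adgre1, Marco, Siglec1, Ccr2 and Vcan with their values. Probe sequences, detection calls and scan dates were not used here.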

Additional observations from a re-analysis of the deposited data

How the results depend on the processing

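Left out 1 at a time, arrays moved the number of probe sets called to 410 to 692 for isotype, 246 to 931 for day 0 and 276 to 912 for day 3 against syngeneic (1017, 1081 and 1108 with all arrays), while 7, 5 to 7 and 6 or 7 of the 7 genes were called. A filter at the 60th percentile gave 1616, 1783 and 1794, no filter 542, 552 and 526, and trend and robust options 1786, 1945 and 1898. Fits to the compared groups alone gave 568 for isotype and 1359 for day 0, with 7 of the 7 genes in each, and 0 for day 3, with 0 of them. For both antibody schedules against isotype (day 0, then day 3) and against each other, where 0 were called, a pseudocount of 100 gave 3, 2 and 6, the 60th percentile 13, 8 and 7, and trend and robust options 21 (2 of the 7 genes), 5 and 12. The cause was not tested.

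Values near 0 changed sign, none of them called. Day 0 minus day 3 of Slc11a1 became 0.0151 with median centring and ran from −0.197 to 0.119 with arrays left out, among them 0.00612 without day 3 array 2. That of Cd163 ran from −0.286 to 0.0824 (without day 3 array 1). Day 0 minus isotype of Blvrb ran from −0.204 to 0.0876, being above 0 without isotype array 1 or day 0 array 1 (0.0546). Day 3 minus isotype ran from −0.516 to 0.402 for Spic and from −0.21 to 0.158 for Cd163, with the highest value without day 3 array 2 in both, and Spic was also above 0 without isotype array 1 (0.131). Isotype against syngeneic kept all 7 calls under all 16 settings, though that of Cd163 gives no support by itself, because of the filter.

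Arrays of the same number correlated by −0.01, 0.07 and 0.04 in their deviations from group means. Whether such arrays share a batch cannot be read from these values and was not tested. With the replicate number as a block, 798, 829 and 858 probe sets were called against syngeneic and 0 in the other 3 comparisons. Median centring shifted the median of isotype against syngeneic from −0.01 to 0.08. The mean over probe sets gave no count of probe sets, and without the syngeneic array its comparisons could not be fitted. No result met a rule for a closer look, since groups held 1 or 2 arrays. Levels of Cd163 and the second Spic probe set are limited by low signal.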
